A study of Mus musculus with 8 samples.

Results

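The comparison set the resistant lineage of the mouse 4T1 cell line against its parental lineage, 4 RNA-seq libraries against 4, and looked for what marked the resistant lineage whether or not Tyro3 was present. All 8 libraries of the study entered it, 2 from each of 4 groups. 4T1 is a triple-negative mammary carcinoma line of the mouse that is grown in culture and transplanted as a tumour. The parental lineage held the unmodified parental cells (Parental cells, control) and parental cells overexpressing Tyro3 (Tyro3 OE). The resistant lineage held anti-PD1 resistant cells (control), named R3 in the labels, and the same resistant cells with Tyro3 knocked out (Tyro3 KO). All were grown untreated in DMEM with 10% serum, so no library was made from cells under antibody or in an animal. The labels do not say how resistance was obtained, which promoter drove Tyro3, or whether a group is 1 clone. The contrast was the mean of the resistant and knockout groups minus the mean of the parental and overexpressing groups.

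Anti-PD1 is an antibody that blocks an inhibitory receptor of T cells, and tumours that grow through it are called resistant. Tyro3, Axl and Mertk make up the TAM receptors, kinases at the cell surface that bind ligands such as Pros1. A cell line kept apart from its parent can differ from it in gene activity, in methylation and in chromosome copies, and 4T1 is known as an aneuploid line. Such differences can stay with a line when a gene is later added to it or removed from it, but they need not. Each lineage was therefore taken both with and without its Tyro3 engineering. The resistant lineage was a single line and the knockout was made from it, so the p-values say nothing about other resistant lines. Nor do the labels tell if both libraries of a group had a culture of their own. The p-values thus rest on the spread between samples, and that spread may be technical.

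Depth ran from 18001482 to 27261282 counted reads per library, and 14513 genes were tested after a filter on low counts. Levels are given as CPM, counts scaled by the library's depth times its TMM factor, a scaling factor from edgeR. The factors ran from 0.9298 to 1.096, so the CPM of different libraries do not have the same sum. Changes are log2 fold changes of the lineage contrast with their standard error (SE) from edgeR's quasi-likelihood test. A gene is called where its p, adjusted by Benjamini-Hochberg over all genes tested, is under 0.05. Of the 6 keratin and adhesion markers used to check for mammary carcinoma cells, all were tested, and their summed level was 854 to 912 CPM in the parental lineage and 519 to 749 CPM in the resistant lineage. Most of it came from Krt8 and Krt18, while Epcam stood at 0.133 to 1.32 CPM and Cdh1 at 0.252 to 4.01 CPM over the 8 libraries. None of the lymphocyte markers was tested, and their summed level was at most 0.661 CPM. Fewer cells of a type and less RNA per cell cannot be told apart in bulk samples. The resistant control libraries stood apart in 8.81% and 9.12% of reads in ribosomal protein genes, against 5.09% to 6.07% in the other 6.

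Tyro3 (ENSMUSG00000027298, chromosome 2, 119797733 to 119818104 in GRCm38, plus strand) was looked at first. Its level was 25.7 and 24.4 CPM in parental, 107 and 102.9 CPM in overexpressing, 20.7 and 21.2 CPM in resistant and 3.81 and 3.99 CPM in knockout libraries. The engineered groups moved as labelled, and the lineage change of -2.50 (SE 0.07) includes that engineering. Axl stood at 1509 and 1549 CPM in parental, 1297 and 1290 CPM in overexpressing, 759.2 and 719.9 CPM in resistant and 1436 and 1433 CPM in knockout libraries. Its lineage change was -0.45 (SE 0.03, adjusted p = 1.47e-17), and the knockout libraries lay within the range of the parental lineage. Pros1 had a lineage change of 0.0015 (SE 0.06, adjusted p = 0.987) and Mertk, at or below 2.53 CPM in each library, 0.50 (SE 0.35, adjusted p = 0.247). Cd274, which encodes PD-L1, the ligand of PD1, had -1.26 (SE 0.18, adjusted p = 7.87e-08). Its levels were 1.96 and 1.85 CPM in parental and 10.8 and 9.10 CPM in overexpressing libraries. In resistant libraries they were 3.05 and 2.21 CPM, and in knockout libraries 1.28 and 1.21 CPM. The resistant libraries were thus above the parental ones and the knockout libraries below them.

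The lineages differed at many genes when the 4 groups were averaged, but few genes differed in the same way for each Tyro3 genotype. The lineage contrast called 7198 of 14513 genes (49.6%), of which 3497 (24.1%) had more and 3701 (25.5%) less RNA in the resistant lineage. When lineage was the only term, so that the spread between genotypes counted as error, the calls came to 13 higher and 16 lower. For 3488 of the 7198 genes (48.5%) the change from parental to resistant and the change from overexpressing to knockout were both called, in opposite directions. Over all genes tested, 6864 (47.3%) showed this opposition. With the groups paired the other way, resistant with overexpressing and knockout with parental, 658 of the 7198 genes were called in opposite directions. At an absolute change of at least 1, 688 genes were called (4.74%). By pair, 71.2% of genes were called between resistant and parental, 55.3% between resistant and overexpressing, 36.3% between knockout and parental and 67.0% between knockout and overexpressing cells. Over all genes tested, the lineage effect differed between the arms, parental to resistant and overexpressing to knockout, for 11085 genes (76.4%). That difference equals the change from parental to overexpressing plus that from knockout to resistant, so changes with the engineering within lineages enter it. Of the variance of log2 CPM, the lineage took 16.1%, the engineered against the control groups 14.7%, the difference between arms 58.4% and the spread within groups 10.9%. A gene called in the mean contrast is therefore no marker of the lineage by itself.

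**Figure D1:**
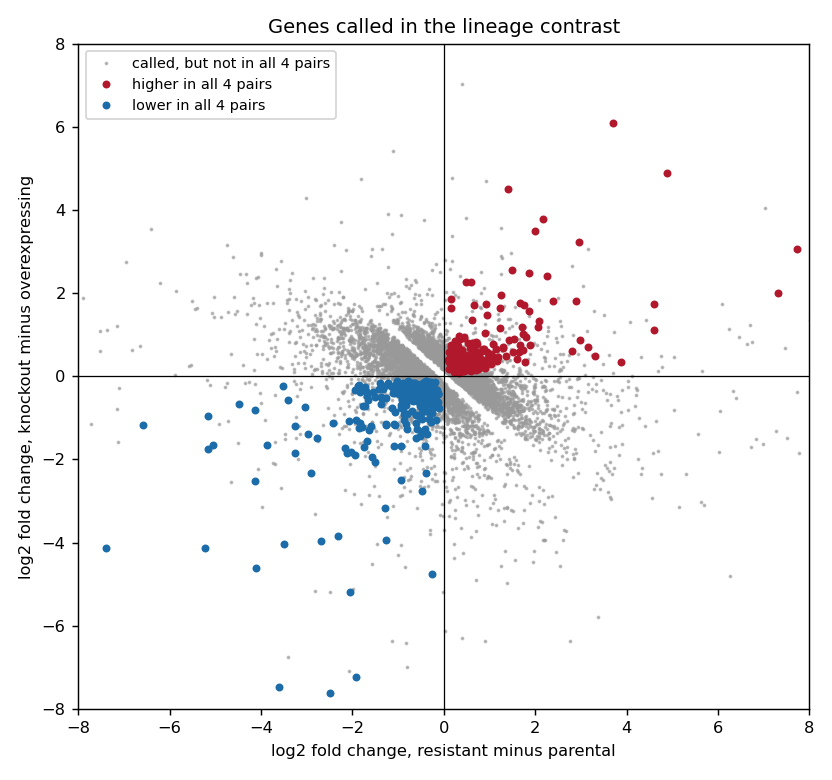
Each point is 1 of the 7198 genes called in the lineage contrast, with its log2 fold change from parental to resistant on the horizontal axis and from overexpressing to knockout on the vertical axis; 11 genes lie outside the axes. Grey points, called but not in all 4 pairs, lie mostly above left and below right of the centre, and the genes called in all 4 pairs, red for higher and blue for lower, have 1 sign on both axes by construction.

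Lineage markers were taken as genes called in the lineage contrast and in the same direction in each of the 4 pairs of a resistant with a parental group. There were 553 of them (3.81% of genes tested), 256 higher (1.76%) and 297 lower (2.05%), and for 547 the 4 libraries of one lineage lay all above those of the other. Over all genes tested, 8.39% had lineages without overlap. The pairs share libraries and are not independent of each other. The median lineage change was 0.459 among the higher markers and -0.556 among the lower ones. In each of the 4 pairs, 22 higher and 34 lower markers changed by at least 1. Tyro3 is among the lower markers. Its engineering enters 3 of its 4 pairs, and between the unengineered groups it was called lower as well, from the levels above; with upper-quartile scaling it was not called in all 4 pairs. The 29 genes called with lineage as the only term were all markers by this definition. Upper-quartile scaling gave 273 higher and 338 lower markers, of which 184 and 239 were among those above, and DESeq2 gave 184 and 221.

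A pair of genes were on in the parental lineage and at or near 0 in the resistant lineage, whatever the Tyro3 genotype. Foxf2 (ENSMUSG00000038402, chromosome 13, 31625816 to 31631403, plus strand) encodes a forkhead transcription factor known from mesenchyme. It stood at 3.56 and 4.21 CPM in parental and 7.01 and 6.85 CPM in overexpressing libraries, 487 reads in all, and had 0 reads in each of the 4 libraries of the resistant lineage. It was at least 40.4-fold lower there than the mean of the parental lineage, against a floor of 3 reads per library (0.134 CPM on average). By group, this bound was 29-fold from the parental and 51.7-fold from the overexpressing libraries. Sorl1 (ENSMUSG00000049313, chromosome 9, 41964720 to 42124297, minus strand) encodes a sorting receptor that carries cargo between the Golgi and endosomes. It stood at 2.32 and 2.002 CPM in parental and 8.86 and 7.65 CPM in overexpressing libraries, against 0.0885 and 0 CPM in resistant and 0 and 0.0505 CPM in knockout libraries. The ratio of the lineages was 171, from 489 reads against 3, with a 95% interval of 58.2 to 832 that covers counting error only (exact binomial). Against the same floor, Sorl1 was at least 16.1-fold lower than in parental and 61.6-fold lower than in overexpressing libraries. Both genes passed the test by edgeR in the lineage contrast (adjusted p = 6.45e-21 for Foxf2 and 5.72e-19 for Sorl1). No gene was on in the resistant lineage and at 3 reads or fewer in each library of the parental lineage by the same rule. The neighbours of Foxf2, chosen after their values were seen, did not share its pattern. Foxq1 was at 11.6 and 12.9 CPM in parental, 34.0 and 32.0 CPM in overexpressing, 46.7 and 45.2 CPM in resistant and 33.6 and 34.3 CPM in knockout libraries, and Foxc1, a forkhead gene on the other side, was at 82.5 CPM or more in each library.

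The start regions of both genes are shown because both stood at or near 0 reads in the same 4 libraries. Each is 250 bases before to 50 bases after the annotated start, read 5′ to 3′ on the gene's strand from RefSeq (GRCm38.p6), with each CG pair in capitals. The Foxf2 region is chr13:31625566-31625865 on the plus strand and the Sorl1 region chr9:42124248-42124547 on the minus strand. 
Foxf2: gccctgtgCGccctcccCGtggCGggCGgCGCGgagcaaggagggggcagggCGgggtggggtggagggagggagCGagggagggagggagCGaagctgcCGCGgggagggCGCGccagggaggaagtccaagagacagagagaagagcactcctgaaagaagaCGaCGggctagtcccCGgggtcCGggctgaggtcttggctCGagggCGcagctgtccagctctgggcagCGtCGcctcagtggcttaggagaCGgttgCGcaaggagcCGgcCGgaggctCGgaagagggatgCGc
Sorl1: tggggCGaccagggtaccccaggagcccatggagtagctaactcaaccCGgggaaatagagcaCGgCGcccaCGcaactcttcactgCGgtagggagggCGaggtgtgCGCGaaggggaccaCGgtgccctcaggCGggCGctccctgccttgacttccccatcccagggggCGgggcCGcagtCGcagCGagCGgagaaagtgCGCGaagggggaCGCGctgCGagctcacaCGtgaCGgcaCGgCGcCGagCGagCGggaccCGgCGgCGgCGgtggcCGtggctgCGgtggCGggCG
The Foxf2 region held 27 CG pairs and the Sorl1 region 37, where the median of 32851 such regions was 7. As many or more were found in 15.5% of regions for Foxf2 and in 5.58% for Sorl1. CG pairs are the main sites of methylation in mammalian DNA. Methylation was not measured here, and the count describes the letters alone.

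The 15 higher markers named by rule included matrix, secreted and surface proteins. Urah (chromosome 7, 140835018 to 140837966, plus strand), an enzyme that acts on the product of urate oxidation, changed by 4.90 (SE 0.29, adjusted p = 8.12e-19 by edgeR). It stood at 0.238 and 0.205 CPM in parental, 0.0403 and 0.16 CPM in overexpressing, 2.96 and 2.89 CPM in resistant and 7.27 and 7.27 CPM in knockout libraries. Each resistant lineage library was above each parental one, which the choice of named markers required. Igfbp6 (chromosome 15, 102144362 to 102149511), a secreted binding protein with a preference for insulin-like growth factor II, stood at 12.5 and 12.1 CPM in parental and 15.3 and 11.2 CPM in overexpressing libraries. It stood at 44.1 and 45.7 CPM in resistant and 73.6 and 73.9 CPM in knockout libraries, a change of 2.17 (SE 0.06, adjusted p = 1.93e-29 by edgeR). Ccdc80, a protein of the extracellular matrix, changed by 2.74 (SE 0.22), from at most 1.13 CPM in the parental lineage to 2.98 to 7.27 CPM. Lmo1, a LIM-only transcription cofactor, changed by 2.33 (SE 0.13), from 1.41 to 2.49 CPM in the parental lineage to 9.19 to 11.3 CPM in the resistant lineage.

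Nrp1, a co-receptor of semaphorins and of vascular endothelial growth factor, was between 2.98 and 4.51 CPM in the parental lineage and between 9.51 and 11.01 CPM in the resistant lineage (1.44, SE 0.11). Syt7, a calcium sensor of vesicle release, was between 2.49 and 3.39 CPM and between 9.19 and 10.8 CPM in the same order (1.74, SE 0.12). For both genes the resistant and knockout groups had nearly equal levels, and the difference between arms did not pass the test (adjusted p = 0.0995 and 0.883). Il4ra, the receptor chain shared by interleukins 4 and 13, was at 33.7 and 33.5 CPM in parental and 29.5 and 27.3 CPM in overexpressing libraries. It was at 64.1 and 63.3 CPM in resistant and 99.0 and 91.2 CPM in knockout libraries (1.33, SE 0.05). The matrix genes Tnxb and Col12a1 changed by 1.45 (SE 0.05) and 1.71 (SE 0.07). Wisp1, a matricellular protein, changed by 1.38 (SE 0.08) and Nbl1, a secreted antagonist of bone morphogenetic proteins, by 0.92 (SE 0.07). Fetub, a secreted protease inhibitor, changed by 1.93 (SE 0.20), Cdk18, a cyclin-dependent kinase, by 1.16 (SE 0.06), and Fam219a by 1.32 (SE 0.10).

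The size of the rise was not always shared by the genotypes. Bnc1, a zinc finger protein of epithelial and germ cells, stood at 5.58 and 5.90 CPM in parental and 4.95 and 5.09 CPM in overexpressing libraries. The resistant libraries stood at 142 and 136.5 CPM, the knockout ones at 11.7 and 9.74 CPM. The knockout libraries were above the parental lineage, but by 0.91 and 1.11 against 4.60 and 4.79 for the resistant ones, and the arms differed (adjusted p = 5.27e-23 by edgeR). Of the 30 markers named by rule, 15 in each direction, the arms differed for 19 and did not pass that test for 11. Over all genes tested, the arms differed for 76.4%, so such a difference was not particular to the markers. With lineage as the only term 18 of the 30 were called, and the 12 that were not include Bnc1, Col12a1, Wisp1, Fetub and Fam219a among the higher ones.

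**Figure D2:**
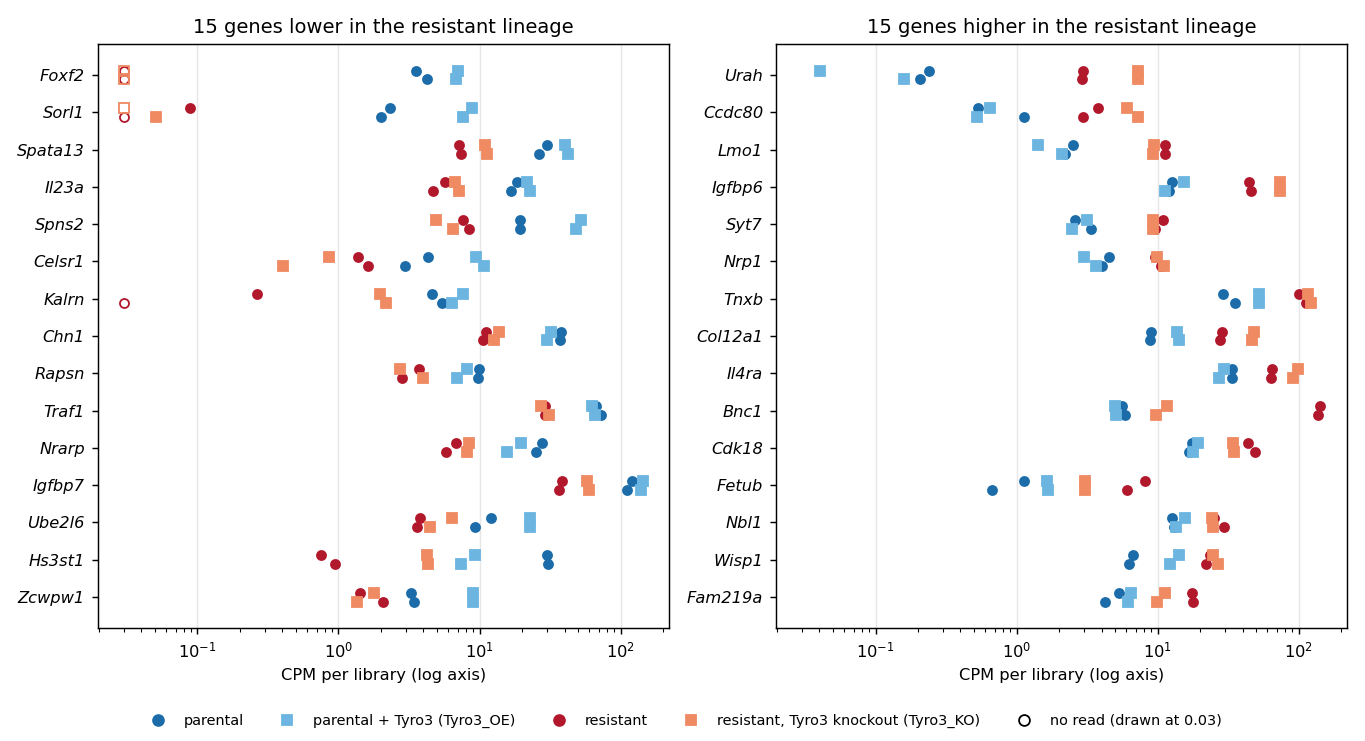
CPM in each library on a log axis for the 15 lower and 15 higher markers with the largest smallest change over the 4 pairs, in that order from the top. Blue marks are the parental lineage and red or orange marks the resistant lineage; the lineages do not overlap for any gene, which the choice of genes required, and Foxf2 has no read in any resistant lineage library.

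The 15 lower markers named by rule included genes of inflammatory signalling, of the cytoskeleton and of cell contacts. Il23a, the p19 subunit of interleukin 23, stood at 18.4 and 16.7 CPM in parental, 21.8 and 22.6 CPM in overexpressing, 5.71 and 4.64 CPM in resistant and 6.65 and 7.17 CPM in knockout libraries (-1.72, SE 0.09). Spata13, an exchange factor of small GTPases, was at 26.6 to 42.2 CPM in the parental lineage and at 7.17 to 11.2 CPM in the resistant lineage (-1.92, SE 0.07). Chn1, a GTPase-activating protein of Rac, was at 30.1 to 37.9 CPM and 10.6 to 13.7 CPM in the same order (-1.50, SE 0.07). All 4 libraries of the resistant lineage lay below those of the parental lineage for these genes, which the choice of named markers required. For Il23a and Spata13 the arms did not pass the test of their difference (adjusted p = 0.745 and 0.731). Igfbp7, a secreted binding protein of insulin-like growth factors, stood at 121.3 and 111.1 CPM in parental and 144.8 and 139.8 CPM in overexpressing libraries. It stood at 38.4 and 36.4 CPM in resistant and 58.1 and 59.2 CPM in knockout libraries (-1.46, SE 0.04, adjusted p = 4.7e-31 by edgeR). Igfbp6, of the same family, rose in this contrast.

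Nrarp, a Notch target that dampens Notch signalling, was at 15.7 to 27.8 CPM in the parental lineage and at 5.82 to 8.47 CPM in the resistant lineage (-1.58, SE 0.09). Ube2l6, the conjugating enzyme of the ubiquitin-like protein ISG15, changed by -1.79 (SE 0.10), and Rapsn, which clusters acetylcholine receptors, by -1.39 (SE 0.13). Spns2, an exporter of sphingosine 1-phosphate, changed by -2.22 (SE 0.08) and Celsr1, a cadherin of planar cell polarity, by -2.60 (SE 0.19). Both were highest in the overexpressing libraries, at 52.8 and 48.4 CPM for Spns2 and 9.46 and 10.7 CPM for Celsr1. Kalrn, an exchange factor of small GTPases, was at 4.57 to 7.61 CPM in the parental lineage, at 0.265 and 0 CPM in resistant and at 1.98 and 2.17 CPM in knockout libraries. Hs3st1, which sulfates heparan sulfate, went from 30.2 and 30.5 CPM in parental to 0.752 and 0.947 CPM in resistant, and from 9.26 and 7.33 CPM in overexpressing to 4.27 and 4.34 CPM in knockout libraries. Zcwpw1, a reader of histone methylation in meiosis, changed by -1.72 (SE 0.17).

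Of the genes of the NF-kB pathway, 7 were lower in the resistant lineage in all 4 pairs. NF-kB is a family of transcription factors that answer inflammatory signals, and its subunits and inhibitors are in part targets of the pathway itself. Of 19 tested genes of NF-kB subunits and targets, 15 were called lower and 2 higher in the lineage contrast, against 25.5% and 24.1% of all genes. In all 4 pairs 7 (36.8%) were lower, against 2.05% of all genes tested. The list's median change was -0.381 against 0.0025 over all genes. For 6 of the 19 genes the arms were called in opposite directions (47.3% of all genes). The summed level was 2590 to 2610 CPM in the parental lineage, 1600 and 1610 CPM in the resistant group and 2580 and 2550 CPM with the knockout, so the list as a sum did not follow the lineage. Nfkb2, the p100 subunit of the non-canonical branch, stood at 282.3 and 280.1 CPM in parental and 254.3 and 251.7 CPM in overexpressing libraries. It stood at 128.5 and 129.4 CPM in resistant and 150.3 and 146.9 CPM in knockout libraries (-0.95, SE 0.03, adjusted p = 5.67e-29 by edgeR). Its partner Relb changed by -0.87 (SE 0.05) and Rela, the main canonical subunit, by -0.41 (SE 0.04).

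Traf1, an adaptor of tumour necrosis factor receptors, was at 62.1 to 72.4 CPM in the parental lineage and at 27.3 to 31.0 CPM in the resistant lineage (-1.20, SE 0.05). The inhibitor gene Nfkbie was at 42.9 to 57.1 CPM and at 20.1 to 25.5 CPM in the same order (-1.12, SE 0.05). Neither differed between arms by the test (adjusted p = 0.241 and 0.324). Tnip1 and Birc3, which restrain and relay signalling from these receptors, were the other members lower in all 4 pairs, at -0.75 (SE 0.04) and -0.86 (SE 0.08). Nfkb2, Nfkbie and Traf1 were also among the 29 genes called with lineage as the only term.

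Of 26 tested cytokine genes 5 were lower (19.2% against 2.05% of all genes) and 1 higher (3.85% against 1.76%) in all 4 pairs. In the lineage contrast 17 were called lower, where the share of all genes was 25.5%, and 5 higher, where it was 24.1%. Csf1, the growth factor of macrophages, was at 289.6 to 301.6 CPM in the parental lineage and at 180.0 to 200.4 CPM in the resistant lineage (-0.64, SE 0.03). Lif, of the interleukin 6 family, changed by -0.9953 (SE 0.05), from 52.0 to 57.0 CPM to 19.7 and 20.1 CPM in resistant and 38.1 and 37.1 CPM in knockout libraries. Ccl20, which attracts cells bearing CCR6, stood at 1.96 and 1.80 CPM in parental, 5.64 and 5.33 CPM in overexpressing, 0 and 0.0902 CPM in resistant and 0.233 and 0.404 CPM in knockout libraries. Cx3cl1, a membrane-bound chemokine, changed by -0.49 (SE 0.06). Il34, which shares its receptor with Csf1, rose by 0.76 (SE 0.13), from 3.15 to 4.52 CPM to 5.88 to 7.07 CPM. The summed level of the list was 1650 to 1720 CPM in the parental lineage, 980 and 986 CPM in resistant and 2280 and 2260 CPM in knockout libraries, so the list as a sum did not follow the lineage.

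In several lists most members were called in the mean contrast and few or none in all 4 pairs, where the share of all genes was 1.76% higher and 2.05% lower. In the mean contrast that share was 24.1% higher and 25.5% lower. All 30 mitosis genes were called lower, and for 29 the arms were called in opposite directions, against 47.3% of all genes. None was lower in all 4 pairs, a count near the 2.05% of all genes. Their summed level was 7430 and 7420 CPM in parental, 4610 and 4590 CPM in overexpressing, 1560 and 1520 CPM in resistant and 7290 and 7180 CPM in knockout libraries. Of 38 interferon-stimulated effectors 28 were called lower, 23 had opposite arms, and 1, Ddx58, a sensor of viral RNA, was lower in all 4 pairs (2.63%). Their sum was 525 to 532 CPM in parental, 551 to 677 CPM in the resistant lineage and 1400 to 1410 CPM in overexpressing libraries. Of 23 cholesterol synthesis genes 18 were called lower and 1 higher, 22 had opposite arms, and none was called in all 4 pairs. Of 30 DNA replication genes 29 were called lower and 23 had opposite arms, while 3 were lower in all 4 pairs (10%). These were Mcm7, of the replicative helicase, at -0.59 (SE 0.03), the transcription factor E2f1, at -0.60 (SE 0.04), and Cdt1, which loads the helicase, at -0.28.

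Of 31 tested NRF2 targets and detoxification genes, which protect against oxidative stress, 19 were called higher and 2 lower, against 24.1% and 25.5% of all genes. For 20 of the 31 the arms were called in opposite directions, against 47.3% of all genes. In all 4 pairs 3 were higher (9.68% against 1.76%). Gsta4, a glutathione transferase for lipid aldehydes, was at 30.9 to 43.6 CPM in the parental lineage, at 72.7 and 71.9 CPM in resistant and at 52.7 and 55.0 CPM in knockout libraries (0.76, SE 0.05). The exporter gene Abcc4 rose by 0.62 (SE 0.04) and Gstp1, another transferase, by 0.44 (SE 0.03). Of 24 genes of cystine import and ferroptosis defence 16 were called higher and 4 lower, 13 had opposite arms, and 3 were higher in all 4 pairs (12.5%). Ftl1, the light chain of the iron store ferritin, stood at 1473 to 1855 CPM in the parental lineage, 5259 and 5129 CPM in resistant and 1929 and 2075 CPM in knockout libraries (1.005, SE 0.04). Its arms differed (adjusted p = 1.1e-19 by edgeR), and it has processed copies in the genome among which reads can be split. Gclc, the rate-limiting step of glutathione synthesis, rose by 0.56 (SE 0.03), and Ncoa4, which brings ferritin to lysosomes, by 0.32 (SE 0.04).

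Lists of cell surface genes held members of both directions. Of 40 axon guidance genes 18 were called higher and 11 lower, against 24.1% and 25.5% of all genes. In all 4 pairs 4 were higher (10% against 1.76%) and 1 lower (2.5% against 2.05%). Besides Nrp1, its ligand Sema3a was higher, at 2.28 to 7.80 CPM in the parental lineage and 9.20 to 12.5 CPM in the resistant lineage (1.39, SE 0.11). Of 16 integrin genes 1 was higher (6.25% against 1.76%) and 3 lower (18.8% against 2.05%) in all 4 pairs. Itga8 went from 42.5 to 57.9 CPM in the parental lineage to 4.25 and 4.64 CPM in resistant and 25.5 and 24.1 CPM in knockout libraries (-2.23, SE 0.06). Itgb7 stood at 59.6 to 85.8 CPM and at 86.3 to 225.4 CPM in the same order (1.01, SE 0.04). Of 19 luminal epithelial markers 10 were called lower and 4 higher, and 2 were lower in all 4 pairs. They were Krt18, at -0.58 (SE 0.03), and Ocln, a tight junction protein on chromosome 13, at -2.13 (SE 0.14). Dsc2, a desmosomal cadherin, was at 0.77 to 2.12 CPM in the parental lineage, had no read in resistant libraries and was at 0.155 and 0.0505 CPM in knockout libraries. Pcdh18, a protocadherin, was at 4.10 to 5.54 CPM in the parental lineage, 0.0442 and 0.0451 CPM in resistant and 1.94 and 2.37 CPM in knockout libraries. The collagenase gene Mmp13 changed by -1.998 (SE 0.12).

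Metabolic and growth genes gave further single markers. Slc2a3, a high-affinity glucose transporter, was at 0.297 to 1.29 CPM in the parental lineage and at 2.65 to 3.99 CPM in the resistant lineage (2.36, SE 0.25), and Hk2, which traps glucose in the cell, rose by 0.52 (SE 0.03). They were the 2 of 21 glycolysis genes that were higher in all 4 pairs (9.52% against 1.76% of all genes). Ccnd2, a cyclin of the G1 phase, was at 3.13 to 4.01 CPM in the parental lineage, 35.5 and 31.7 CPM in resistant and 5.25 and 5.81 CPM in knockout libraries (1.90, SE 0.11), and its arms differed (adjusted p = 6.9e-16 by edgeR). Of 34 growth factor genes 3 were higher (8.82% against 1.76%) and 5 lower (14.7% against 2.05%) in all 4 pairs. Those lower included Pdgfa (-0.54, SE 0.05), Pdgfb (-1.05, SE 0.05) and Egfr (-0.48, SE 0.07). Of 27 genes of the ATF4 amino acid response 4 were lower in all 4 pairs (14.8%, against 2.05% of all genes). For 22 of them the arms were called in opposite directions, against 47.3% of all genes. The lower ones included Phgdh (-0.42, SE 0.03) and Psat1 (-0.53, SE 0.03), enzymes of serine synthesis. Of 13 mitochondrially encoded genes 11 were called higher, against 24.1% of all genes. Among them mt-Nd5 and mt-Nd6, subunits of complex I from opposite strands, were higher in all 4 pairs (15.4% of the 13, against 1.76%). The mitochondrial share of reads was 2.98% and 3.23% in resistant libraries, against 1.99% to 2.42% in the other 6, and its part in that count was not tested.

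**Figure D3:**
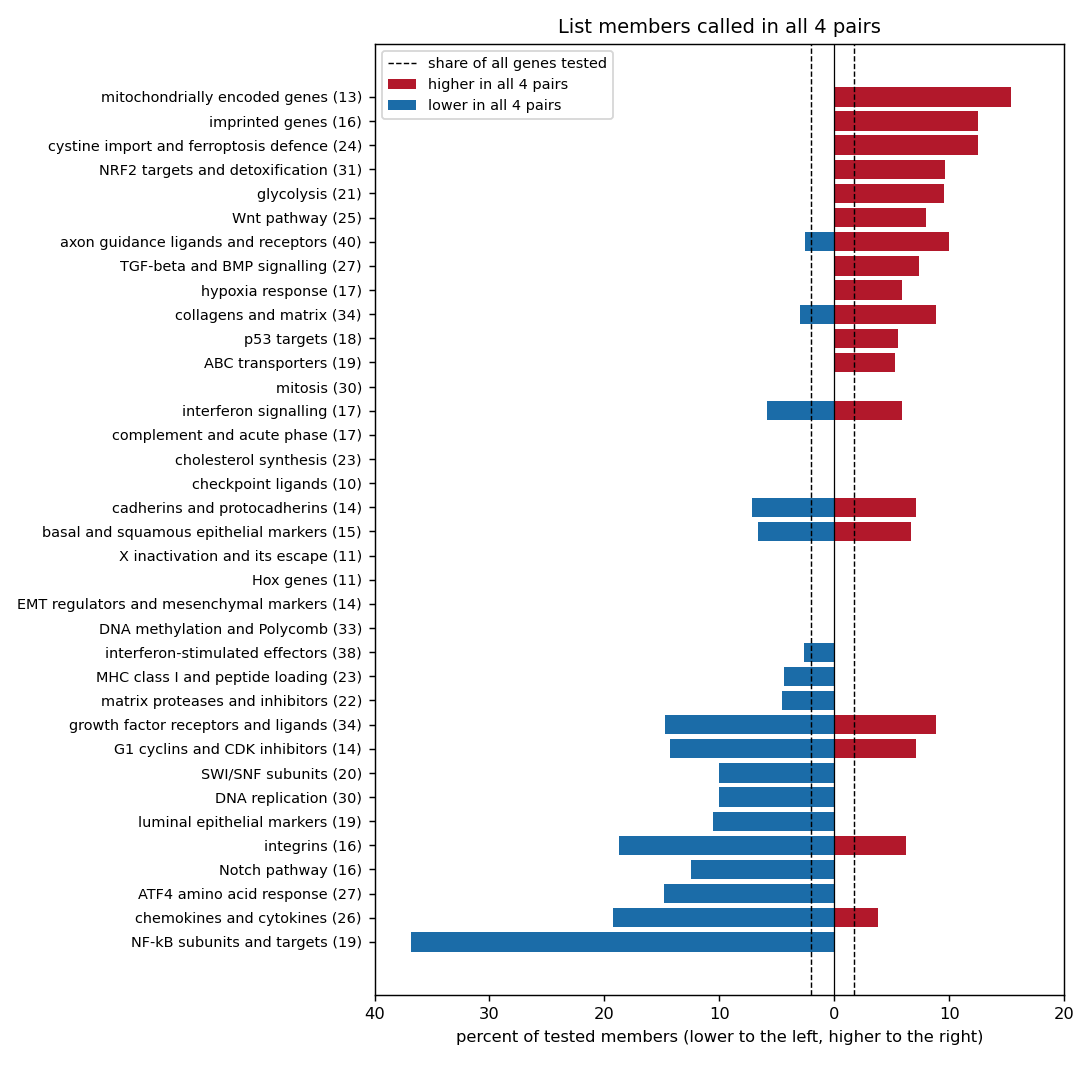
For each list with at least 10 tested members, the percent of tested members called in all 4 pairs, higher to the right and lower to the left, with the number tested in brackets. The dashed lines are the 1.76% and 2.05% of all genes tested; the NF-kB list reaches 36.8% on the lower side, and the mitosis list has no member on either side.

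Chromosome 13 was lower as a whole in the resistant lineage. For each library, the median over a chromosome's genes of log2 CPM, centred on the gene's mean over the 8 libraries, was taken minus the same median over all genes. On chromosome 13, with 557 tested genes, this shift was 0.172 and 0.164 in parental, 0.131 and 0.151 in overexpressing, -0.171 and -0.186 in the resistant group and -0.097 and -0.099 with the knockout. The 4 libraries of the resistant lineage were all below the 4 of the parental lineage, and the knockout libraries lay between the resistant ones and the parental lineage. The lineages differed by -0.293, a level 0.816 times that of the parental lineage. The standard deviation between libraries of a group was 0.0105 over all chromosomes. Between the 4 libraries of a lineage, which include both its groups, it was 0.018 (parental) and 0.047 (resistant) on chromosome 13. With no filter on low counts the difference between lineages was -0.182. By pair, the level was 0.787 (resistant to parental), 0.802 (resistant to overexpressing), 0.832 (knockout to parental) and 0.847 (knockout to overexpressing).

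The difference was spread over the genes of chromosome 13 and not carried by a few. Of its tested genes 84.4% had a lineage change below 0, 331 were called lower (59.4%, against 25.5% of all genes) and 24 higher (4.31%, against 24.1%). Among the 315 genes at 10 CPM or more, 82.5% were called lower, with a median change of -0.283. Among genes at that level on the other chromosomes, the share called lower ran from 16.7% (chromosome 18) to 55.7% (chromosome 19). In order of position, all 22 windows of 25 tested genes had a median below 0, from -0.423 to -0.21, and 19 of the 22 were below 0 in each of the 4 pairs. Over all chromosomes 247 of 568 windows were below 0, and 67 were in each pair. The lowest window, from 55602182 to 59675811, had 19 of 25 genes called lower. Markers on the chromosome were 47 lower (8.44%, against 2.05% of all genes) and 1 higher (0.18%, against 1.76%), Serpinb6b, a serine protease inhibitor. Besides Foxf2 and Ocln they included Nsd1, a histone H3 lysine methyltransferase, at 34.2 to 38.1 CPM in the parental and 18.6 to 22.9 CPM in the resistant lineage (-0.85, SE 0.06). Zfp367 was at 82.4 to 83.0 CPM and 41.8 to 52.3 CPM in the same order (-0.81, SE 0.04). Il6st, the shared receptor chain of the interleukin 6 family, was at 384.3 to 476.2 CPM and 263.3 to 309.8 CPM (-0.58, SE 0.03), and Cenpk, a kinetochore protein, changed by -1.48 (SE 0.09).

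**Figure D4:**
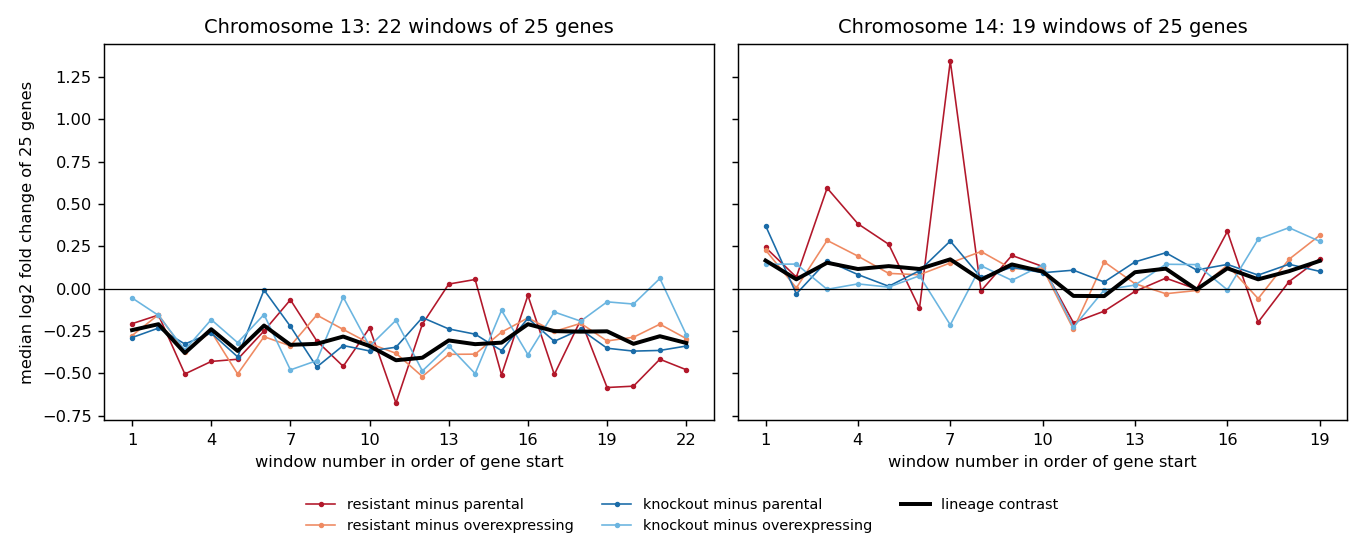
Median log2 fold change of 25 consecutive tested genes along chromosomes 13 and 14, the thick line for the lineage contrast and thin lines for its 4 pairs; the horizontal axis is the window's number in order of gene start. On chromosome 13 the thick line stays between -0.423 and -0.21 from end to end, and on chromosome 14 it runs from -0.044 to 0.173.

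Other chromosomes shifted less. By sign alone, chromosomes 19, 5 and 3 were lower and 4, 6, 7, 9, 12, 14 and 16 higher in each pair. Some of these pair differences were close to 0, such as 0.002 on chromosome 16 from parental to resistant. Chromosome 19 had a lineage difference of -0.156, with all 19 windows below 0 but 8 below 0 in each pair. Its shift was 0.145 and 0.136 in parental, 0.005 and -0.010 in overexpressing, -0.023 and -0.011 in the resistant group and -0.141 and -0.175 with the knockout, so that overexpressing and resistant libraries nearly met. Chromosome 5 differed by -0.143 with lineages that overlapped, and chromosome 3 by -0.106 without overlap. The highest difference was on chromosome 14, 0.115, where the 4 libraries of the resistant lineage lay within 0.053 to 0.063 and those of the parental lineage within -0.068 and -0.045. Esd, on chromosome 14, which hydrolyses S-formylglutathione, was at 401.7 to 602.2 CPM in the parental lineage and 746.1 to 768.7 CPM in the resistant lineage (0.63, SE 0.03). Chromosomes 7 and 4 differed by 0.092 and 0.083, and chromosome 1 was high in knockout libraries alone (0.166 and 0.162, against -0.123 to 0.048 in the other 6).

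Of the 20 chromosomes, 9 had lineages without overlap, 3 lower (13, 19 and 3) and 6 higher (4, 6, 7, 9, 12 and 14). An exact two-sided permutation test of 4 against 4 libraries gave each p = 0.0286, the smallest that its 70 splits allow, and none passed adjustment over the 20 chromosomes (adjusted p = 0.0635). The test treats all libraries as free to swap between lineages, but replicates of a group were more alike than libraries of different groups. These p-values are therefore not exact for the difference between lineages. Chromosomes 13, 19, 5 and 3, picked for the lowest lineage differences in these same libraries, held 18.9% of genes tested. They held 141 of the 297 lower markers (47.5%) and 13 of the 256 higher ones. An excess of lower markers on them follows from that choice and is no separate result. Lower markers named above that lie on these chromosomes include Foxf2, Ocln, Nsd1, Zfp367, Il6st and Cenpk on 13 and Nfkb2 and Rela on 19. Igfbp7, Hs3st1 and Zcwpw1 lie on 5 and Csf1 on 3, beside the shifts of those chromosomes. These are examples and not the full list. Gene copy number was not measured, and its part in these shifts was not tested.

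**Figure D5:**
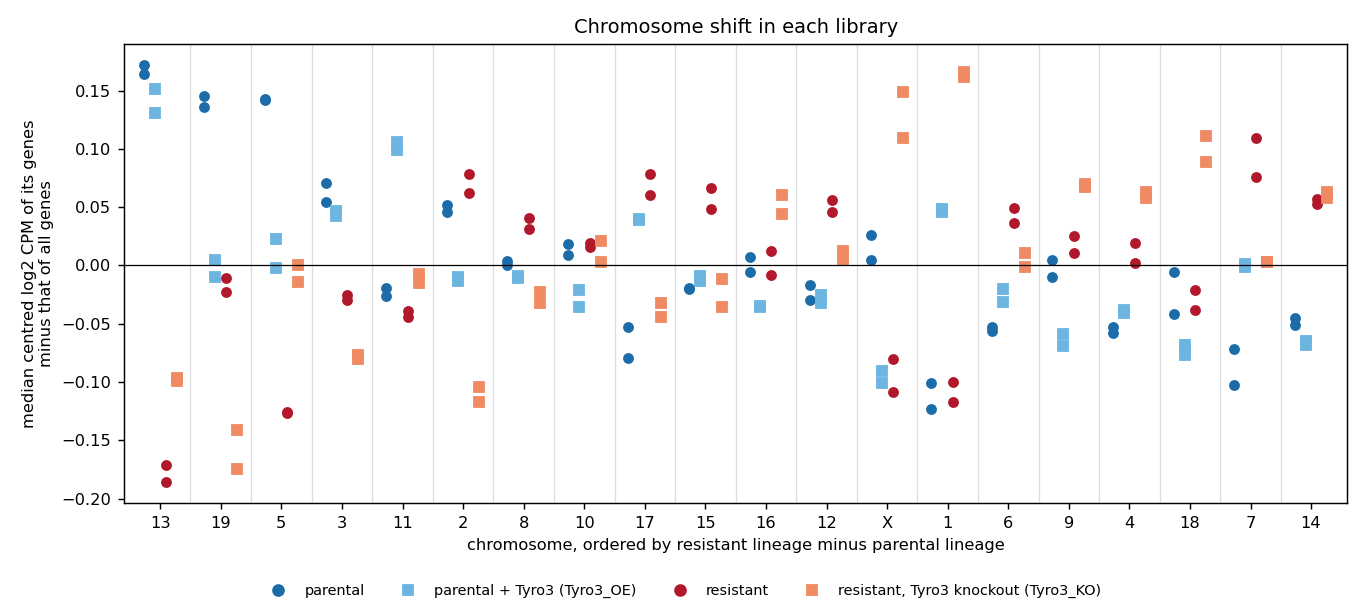
Chromosome shift, the median centred log2 CPM of a chromosome's genes minus that of all genes, in each of the 8 libraries, with chromosomes ordered by the difference between lineages. On chromosome 13, at the left, the parental lineage (blue) lies between 0.131 and 0.172 and the resistant lineage (red and orange) between -0.186 and -0.097, the widest gap among the 20 chromosomes.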

How the data were processed

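The authors deposited 3 tables, each of 4 libraries, with raw read counts per gene as whole numbers, per the file headers. The submitters' processing notes name CASAVA, STAR, DESeq2 and the builds mm10 and GRCm38. How reads were counted, and whether by strand, is not given in the sources used here, so reads of genes that overlap on opposite strands may not be told apart. Joining the deposited counts on the identifier gave 24677 genes, 20265 of them present in all 3 tables. Where a table left a gene out, its libraries got 0; counts of a library present in more than one table were equal, and a gene left out of one table had at most 1 read for the same library in another. Symbols turned into dates (24) were restored by identifier. Other values in the tables were not used.

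The test on counts was edgeR's (4.0.16, under R 4.3.3; TMM, filterByExpr by group, glmQLFit, glmQLFTest), with 1 mean per group, and adjusted over the 14513 genes tested; the test was tried on simulated data. The standard error is the size of the change divided by the square root of F. The common dispersion, 0.00123, equals a coefficient of variation of 3.51%. Replicates differed by more than counting noise (chi-square over degrees of freedom 1.98 to 5.25). Chromosome shifts used log2 CPM with a prior count of 2.

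The comparison, the 43 gene lists and the rules were chosen with earlier results of these data known. Named genes were Tyro3, Axl, Mertk, Pros1 and Cd274, and the 15 markers per direction with the largest smallest change over the 4 pairs, at least 5 CPM in the higher lineage, no overlap and no predicted-gene name. They were also genes with at most 3 reads in each library of one lineage and at least 2 CPM in each of the other, up to 3 called members per list, and up to 4 genes for each of the 3 highest and lowest chromosomes and the 4 highest and lowest windows. Members beyond these that were called in all 4 pairs, Nsd1, Zfp367, Cenpk and Ocln among them, were named after their values were seen. Part of the genes so named is given in the text. As alternatives, DESeq2 1.42.0, upper-quartile and RLE scaling were run, with other filters, lineage as the only term, a fold threshold, the replicate number as a block, each library left out, other window sizes, and, added after seeing the data, removal of trends in GC content and gene length.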

Additional observations from a re-analysis of the deposited data

Results flagged for a closer look

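The lineage effect was measured in 2 arms, from parental to resistant cells and from overexpressing to knockout cells, and for 11085 of 14513 genes the effects differed by edgeR's quasi-likelihood test of the difference itself (Benjamini-Hochberg adjusted p under 0.05). A difference below is the first effect minus the second, on the log2 scale. It equals the change from parental to overexpressing plus that from knockout to resistant, so changes with the engineering within lineages enter it. Among the TAM genes and Cd274 it was -1.20 for Axl, 2.51 for Mertk, -1.93 for Pros1 and 3.45 for Cd274, and for these genes the estimates of the arms had opposite signs.

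Among the higher markers, the rise was smaller in the first arm for Urah (-2.40), Ccdc80 (-1.50), Igfbp6 (-0.61) and Il4ra (-0.82). It was larger there for Tnxb (0.54), Bnc1 (3.49), Cdk18 (0.56), Fetub (2.12), Wisp1 (0.86) and Fam219a (1.14). Among the lower markers, the fall was smaller in the first arm for Spns2 (1.89), Celsr1 (2.66), Ube2l6 (0.54) and Zcwpw1 (1.55), of which overexpressing libraries held the highest levels. It was larger there for Kalrn (-3.41), Chn1 (-0.55), Nrarp (-0.98), Igfbp7 (-0.35) and Hs3st1 (-4.21). The effect had the same sign in both arms for these markers, as their choice required.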

How the results depend on the processing

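The counts depended most on what was taken as error and on a fold threshold. With lineage as the only term 13 genes were called higher and 16 lower, against 3497 and 3701, and 1319 had an unadjusted p under 0.05 by edgeR. With a minimum of 1 for the absolute log2 fold change, 262 were called higher and 426 lower, 22 and 34 in all 4 pairs, and 6746 differed between arms. Under the scaling, filter, DESeq2 and GC and length settings, 2645 to 4070 were called higher and 3254 to 3701 lower, and 178 to 305 and 221 to 338 in all 4 pairs. Leaving out each replicate in turn gave 3047 to 3323 higher and 3388 to 3641 lower, and 194 to 259 and 237 to 287 in all 4 pairs. The 30 markers named by rule were called in all 4 pairs under each of these settings but the fold threshold and lineage as the only term; Tyro3 was not with upper-quartile scaling. Replicate numbers did not pair the samples (correlations of deviations -0.102 to 0.0706); with the replicate number as a block 3462 were higher and 3675 lower, 252 and 295 in all 4 pairs. The change of Pros1, near 0 and not called, was -0.0084 with no filter and -0.0493 to 0.048 with each replicate left out.

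With no filter on low counts the difference was -0.182 on chromosome 13 and 0.098 on chromosome 14; the cause was not tested. Leaving out each replicate gave -0.296 to -0.273 and 0.101 to 0.120, the lowest of the latter without knockout replicate 1. With GC and length trends removed they were -0.291 and 0.115. Genes under about 10 reads carry few counts, and levels near the floor of 3 reads are limited by depth.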

Other observations

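Xdh, Uox and Urah, chosen after their values were seen, are enzymes of purine breakdown that were higher in the resistant lineage in all 4 pairs; other genes of purine breakdown were not looked at as a list. Xdh, which makes urate from xanthine, stood at 360.6 and 371.9 CPM in parental, 470.8 and 475.1 CPM in overexpressing, and between 576.9 and 617.9 CPM in the 4 libraries of the resistant lineage (0.52, SE 0.03, adjusted p = 2.35e-20 by edgeR). Uox, urate oxidase, which acts next and is known mainly from liver, had 1, 0, 1 and 2 reads in the parental lineage, and between 21 and 59 in the resistant lineage (4.89, SE 0.56, adjusted p = 4.15e-10 by edgeR). Urah acts on the product of Uox, with the levels given above. Uox, on chromosome 3, and Urah, on chromosome 7, were both among the 29 genes called with lineage as the only term.

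Other members of those 29, also chosen after their values were seen, were Nr1d1, a repressor of the circadian clock, at 23.5 to 27.9 CPM in the parental and 41.1 to 43.5 CPM in the resistant lineage (0.71, SE 0.05), and Fbln1, a matrix glycoprotein, at 16.0 to 18.9 CPM and 27.9 to 31.1 CPM in the same order (0.77, SE 0.06). Kirrel, an adhesion protein of the slit diaphragm, was at 318.0 to 331.8 CPM and 180.0 to 208.8 CPM (-0.74, SE 0.03), and Cavin3, of the caveolar coat, at 51.9 to 56.7 CPM and 27.4 to 35.3 CPM (-0.77, SE 0.05).

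Counts in the remaining lists are small, and over all genes tested 1.76% were higher and 2.05% lower in all 4 pairs. Of these lists, 2 of 25 tested Wnt pathway genes (Fzd7 and Lgr4) and 2 of 27 TGF-beta and BMP genes (Tgfbr2 and Smad6) were higher in all 4 pairs, and none lower. Of 16 imprinted genes 2 were higher, Peg13 and Impact. Of 16 Notch pathway genes 2 were lower, Nrarp and Jag2, and of 20 SWI/SNF subunits 2, Smarca2 and Smarcc2. Of 34 collagen and matrix genes 3 were higher and 1 lower. With 3.81% of all genes called in all 4 pairs, lists of 4 to 33 tested genes may hold none by their size alone. That count was 0 for the lists of checkpoint ligands, Hox genes, mesenchymal markers, DNA methylation and Polycomb genes, X inactivation, complement, germline genes, and fibroblast, endothelial and macrophage markers. The macrophage and neutrophil markers, 4 of them tested, summed to 59.4 to 91.9 CPM in the parental and 33.5 to 82.8 CPM in the resistant lineage.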
